A study of Mus musculus with 6 samples.

Results

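Genes that make, use and dispose of nicotinamide adenine dinucleotide (NAD), with the sirtuins that consume it, were followed in gastrocnemius muscle of mice without IRF4 and mice with an excess of it. The 10 genes were chosen by name for their role, with earlier results of these data known: Nnmt, Aox1, Mat2a, Nampt, Nmrk1, Nmrk2, Nmnat3, Nnt, Sirt1 and Sirt3. They are 10 of the 24054 genes in the count table, and all 10 are among the 12660 genes with enough reads to be tested. Nnmt had been listed by the study as a gene that changed in these libraries, so its difference here is not independent evidence.

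Both groups were male mice labelled as C57BL/6 with 3 libraries each. MI4KO mice were homozygous for a floxed Irf4 allele and carried Myl1-Cre, a recombinase expressed selectively in skeletal muscle. MI4OE mice carried the same Myl1-Cre with an Irf4 transgene at the Rosa26 locus behind a loxP-stop-loxP cassette. The fibroblasts, vessels, fat and immune cells of the muscle are not targets of this Cre. The labels give a high fat diet for all 6 libraries while the study's account is of chow-fed mice, so the diet is uncertain, and no age is given for these animals. No flox or wild-type gastrocnemius was analysed here. Each difference is therefore MI4OE against MI4KO, and which of the 2 groups departs from an unmanipulated muscle cannot be told apart.

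NAD is rebuilt mainly from nicotinamide, which is released each time a sirtuin, a poly(ADP-ribose) polymerase or CD38 cleaves NAD. Nampt, the rate-limiting enzyme of this salvage, turns nicotinamide into nicotinamide mononucleotide, the nicotinamide riboside kinases Nmrk1 and Nmrk2 reach the same product from nicotinamide riboside, and the Nmnat enzymes complete NAD. Nnmt removes nicotinamide from the cycle by methylating it with S-adenosylmethionine, the methyl donor that Mat2a makes, and aldehyde oxidase Aox1 oxidises the methylated product for excretion. Nnmt is best known from liver and adipose tissue, whereas Nmrk2 is a muscle gene.

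The libraries held between 18828605 and 29239585 expected counts, and 3 counts, used here as the detection floor, amounted to 0.101 to 0.148 CPM, the unit used here for counts scaled to a common library size. Irf4 had 6, 0 and 2 counts in MI4KO and 2864, 10557 and 5911 counts in MI4OE, as the labels require. The summed level of 10 skeletal muscle markers ran from 219674 to 293196 CPM in MI4KO and from 160885 to 237613 CPM in MI4OE. MI4OE replicate 1 stood apart in its slow-fibre markers, whose sum was 5014 CPM there, 474.8 CPM in MI4OE replicate 3 and at most 93.6 CPM in the other 4 libraries. The 3 libraries of a group are treated as separate animals, since their titles carry different numbers, and the p-values measure the spread between them.

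Levels were first compared between genes over all 6 libraries in TPM, in which read counts are adjusted for transcript length and library depth. Nmrk2 stood highest, with a mean of 114 TPM and a range of 46.4 to 173 TPM. It was followed by Mat2a with 61.3 TPM and Nampt with 31.5 TPM. Sirt3 averaged 20.1 TPM, Nnt 16.5 TPM and Nmnat3 10.7 TPM. Aox1, Nmrk1 and Nnmt lay close together at 5.55, 4.51 and 4.29 TPM, and Sirt1 was lowest at 1.46 TPM. Of the 9 pairs of neighbours in this order, only Nmnat3 and Aox1 had ranges that did not overlap. Mat2a exceeded Nampt in all 6 libraries although their ranges overlapped, since Nampt reached 47.1 TPM in one library and Mat2a fell to 36.6 TPM in another. Within families the order was the same in every library: the TPM of Nmrk2 was 10.7 to 41.7 times that of Nmrk1, and the TPM of Sirt3 was 5.75 to 53.8 times that of Sirt1.

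**Figure D1:**
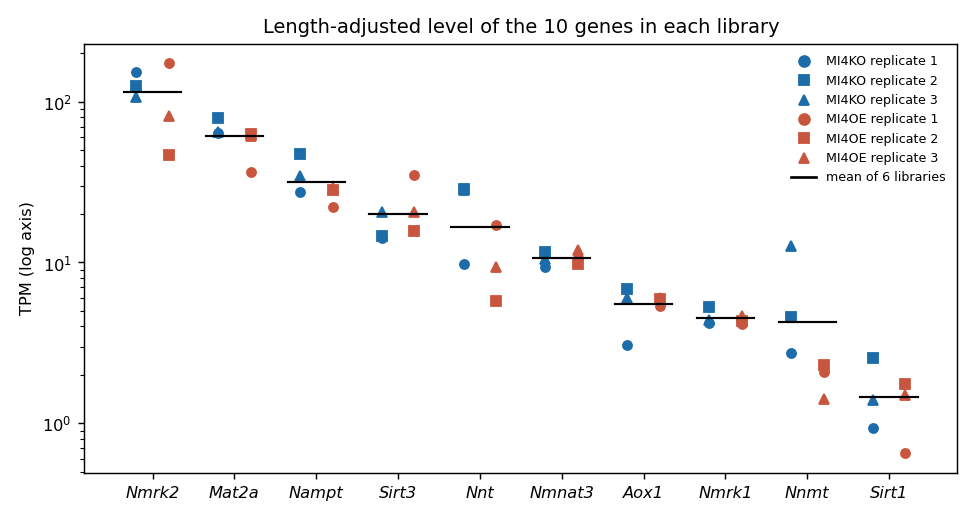
Level of the 10 genes in TPM on a log axis, with 1 point per library for the 3 MI4KO and 3 MI4OE libraries. Nmrk2 has the highest mean (114 TPM) and Sirt1 the lowest (1.46 TPM), and most neighbours overlap.

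Between the groups, edgeR's quasi-likelihood test called 0 of the 10 genes at an adjusted p under 0.05, against 0.0237% of all genes tested. DESeq2 and edgeR's exact test also called 0 of the 10. At an unadjusted p under 0.05 the quasi-likelihood test gave 2 of the 10, Nnmt and Nampt, beside 7.58% of all genes. Both were lower in MI4OE, as were 2.68% of all genes at that p, while DESeq2 gave 4 of the 10 beside 8.61% of all genes and the exact test 3 beside 8.43%. The study's criterion of a 1.5-fold difference with an unadjusted p under 0.05 was met by Nnmt alone. Of all genes 6.64% met it, with 2.28% lower and 4.36% higher in MI4OE. The study itself reports the opposite balance for gastrocnemius, with more genes lower than higher in MI4OE, and the cause of this was not tested. The 10 genes leaned toward lower values in MI4OE, where 8 of them had the lower fitted level. The number was 7 with total counts, with limma on TPM or without MI4OE replicate 2. Of the 8, Nmrk1, Nmrk2, Nmnat3 and Sirt1 differed by less than their SE. The median log2 fold change of the 10 genes was -0.37, against -4.3e-05 over all genes tested, of which 50.02% were lower. Because the genes were chosen with earlier results of these data known, this lean is not independent evidence. The median was -0.23 without MI4OE replicate 1 and -0.25 without MI4KO replicate 1. In 3 genes, Nnmt, Nampt and Mat2a, every MI4OE library lay below every MI4KO library in CPM, a pattern seen in 5.48% of all genes. In TPM, Nnmt and Mat2a still separated and Nampt overlapped. The opposite pattern, found in 7.38% of all genes, was seen in 0 of the 10, and either pattern held for 12.9% of all genes.

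**Figure D2:**
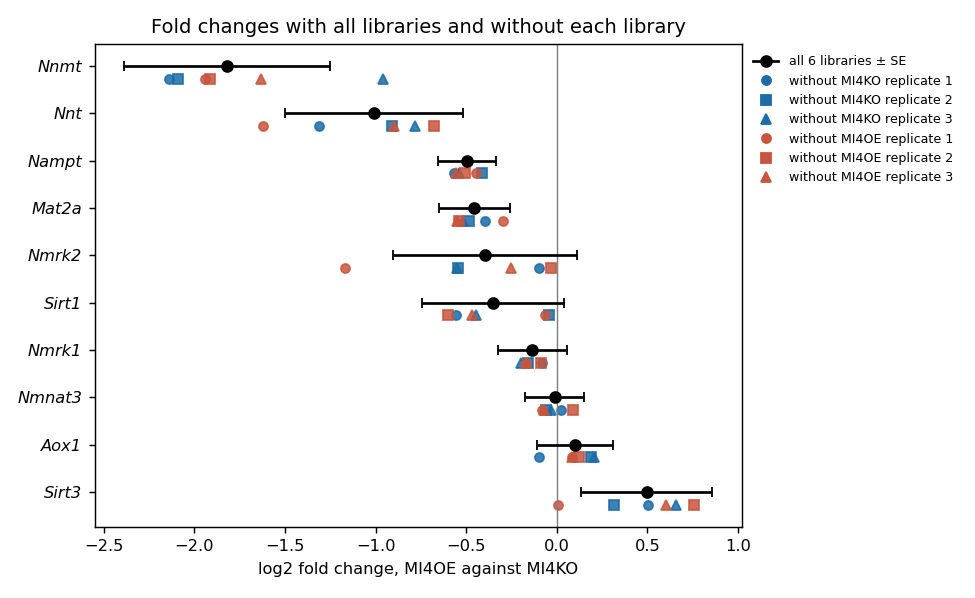
Log2 fold change of MI4OE over MI4KO for the 10 genes, with black points and SE bars for all 6 libraries and coloured points for fits without 1 library. Nnmt has the most negative value at -1.82, Nampt and Mat2a lie near -0.50 and -0.45, and the bars of Nmrk1, Nmrk2, Nmnat3, Aox1 and Sirt1 cross 0.

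Nnmt, the nicotinamide methyltransferase, was detected at 1.76, 2.1 and 6.75 CPM in MI4KO replicates 1, 2 and 3, and at 1.18, 1.12 and 0.707 CPM in MI4OE. These levels rest on 43, 53 and 201 counts in MI4KO and on 24, 32 and 16 counts in MI4OE. The groups did not overlap, and MI4KO replicate 3 stood well above the other 5 libraries. The means were 3.54 ± 2.79 CPM (SD, n = 3) and 1.0 ± 0.258 CPM (SD, n = 3). Its fitted log2 fold change was -1.82 ± 0.57 (SE), that is 3.53-fold lower in MI4OE, at an unadjusted p of 0.0133 and an adjusted p of 0.545. An exact two-sided permutation test gave p = 0.1, the smallest that 3 against 3 libraries allow. Without MI4KO replicate 3 the difference was smaller, at 1.94-fold, with an unadjusted p of 0.0448.

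The same library also carried the most fat and liver marker RNA. The summed level of 8 adipocyte markers was 186, 352 and 973 CPM in MI4KO and 269, 141 and 115 CPM in MI4OE. All 8 were lower on average in MI4OE, and 5 of them, Adipoq, Lep, Plin1, Cidec and Retn, did not overlap between groups. Adipoq, the adipocyte hormone adiponectin, read 9.58, 17.7 and 81.4 CPM in MI4KO against 0.886, 5.94 and 1.37 CPM in MI4OE. Adipoq had the same highest library and the same direction as Nnmt. The sum of the 8 adipocyte markers overlapped between groups, however, as did Cfd, Fabp4 and Pparg. Of 6 hepatocyte markers, the sum was 50.1 CPM in MI4KO replicate 3 and at most 3.92 CPM in the other libraries, and Alb (albumin) accounted for 29.5 CPM of it. Summed fibroblast markers ran the other way, from 217 to 323 CPM in MI4KO and from 373 to 512 CPM in MI4OE, with all 8 higher on average and 6 not overlapping. The endothelial list of 8 did the same, with 102 to 158 CPM in MI4KO and 187 to 357 CPM in MI4OE. The sum of 7 macrophage markers overlapped, at 36.6 to 60.5 CPM and 26.4 to 50.2 CPM, with 5 lower and 2 higher on average in MI4OE. One of them, Cd163, lay wholly higher there, at 2.42 to 4.01 CPM in MI4KO and 4.23 to 5.92 CPM in MI4OE. The part of these cells in the Nnmt difference was not tested, and in bulk tissue fewer cells of a type and less RNA per cell cannot be told apart.

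**Figure D3:**
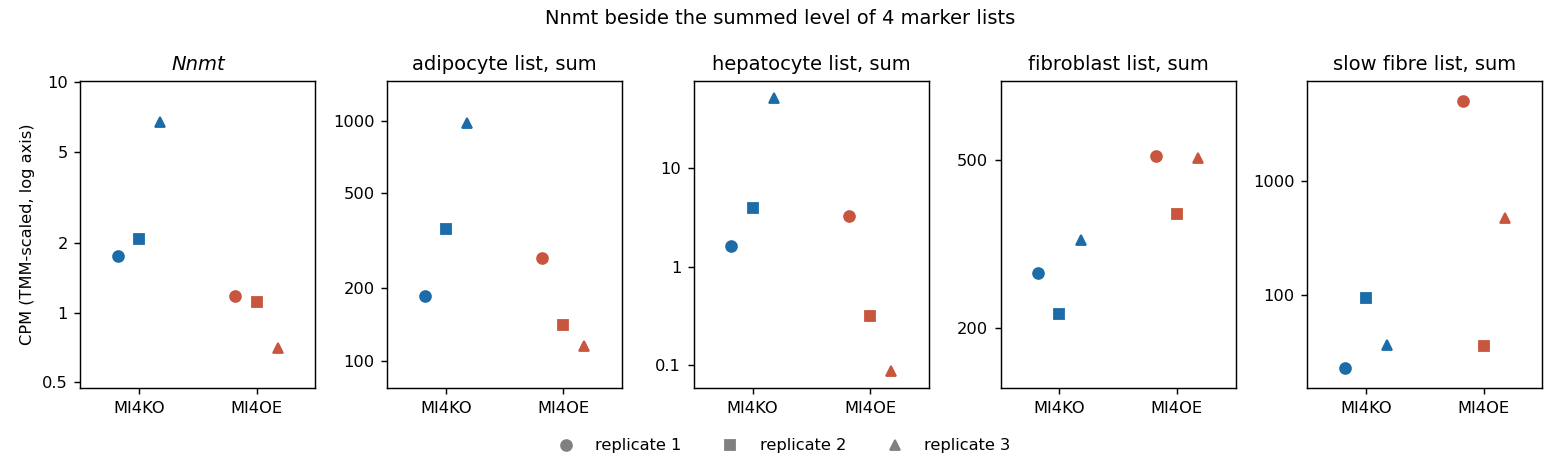
Nnmt and the summed CPM of 4 marker lists in each library, on log axes, with marker shapes for replicates 1 to 3. MI4KO replicate 3 is the highest library for Nnmt (6.75 CPM), for the adipocyte list (973 CPM) and for the hepatocyte list (50.1 CPM), whereas the slow-fibre list peaks in MI4OE replicate 1.

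The genes whose profile over the 6 libraries was nearest to that of Nnmt were Sncg, Slc1a5 and Cfb. Their root mean square differences from it were 0.22, 0.28 and 0.29 on the log2 scale, among 11270 genes with a median of 1.06. Sncg, the gene of gamma-synuclein, read 8.07, 10.7 and 46.0 CPM in MI4KO and 7.87, 6.68 and 4.86 CPM in MI4OE. Sncg had its peak in MI4KO replicate 3, as did Slc1a5, a neutral amino acid transporter, at 68.0 CPM, and Cfb, complement factor B, at 18.6 CPM. The shared peak follows from choosing these genes for a profile near that of Nnmt.

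Aox1, the aldehyde oxidase that acts on the product of Nnmt, did not follow it. Aox1 measured 10.1, 16.1 and 16.5 CPM in MI4KO and 15.6, 14.8 and 15.4 CPM in MI4OE. Only MI4KO replicate 1 fell outside a narrow band. Between groups its fitted log2 fold change came to 0.10 ± 0.21 (SE, adjusted p = 0.940), and leaving out MI4KO replicate 1 turned it to -0.10.

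Mat2a, the catalytic subunit that makes S-adenosylmethionine outside the liver, measured 131, 117 and 112 CPM in MI4KO and 67.2, 97.8 and 98.0 CPM in MI4OE. The groups did not overlap, and MI4OE replicate 1 was the lowest library. The means were 120 ± 9.70 CPM (SD, n = 3) and 87.7 ± 17.7 CPM (SD, n = 3). That is a log2 fold change of -0.45 ± 0.20 (SE, unadjusted p = 0.0516, adjusted p = 0.663). Without MI4OE replicate 1 the log2 fold change was -0.30. The regulatory partner Mat2b, which adjusts the same enzyme, did not overlap either but lay on the other side, with 36.9 to 38.2 CPM in MI4KO and 39.8 to 41.0 CPM in MI4OE, adjusted p = 0.879 and a ratio of 1.08 between the groups. Mat2a was above Mat2b on the TPM scale in every library, by 1.93 to 2.32 times in MI4KO and by 1.08 to 1.62 times in MI4OE. Exons of Mat2a share 508 bases with the antisense gene Particl, and RSEM split some of its reads with other transcripts. Whether reads were counted by strand is not stated.

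Nampt, the gateway of nicotinamide salvage, measured 93.5, 115 and 98.2 CPM in MI4KO and 67.1, 73.2 and 77.3 CPM in MI4OE. In CPM each MI4OE library was below the lowest MI4KO library, and the replicates lay close together. In TPM the groups overlapped, at 27.53, 47.06 and 34.57 TPM in MI4KO and 22.15, 28.39 and 29.08 TPM in MI4OE. The means were 102 ± 11.5 CPM (SD, n = 3) and 72.5 ± 5.17 CPM (SD, n = 3). On the log2 scale Nampt differed by -0.50 ± 0.16 (SE), or 1.41-fold lower in MI4OE, at an unadjusted p of 0.0153 and an adjusted p of 0.546. This value ranged from -0.57 to -0.41 when each library was left out in turn. It stayed negative in 15 of 15 alternatives, and the unadjusted p was under 0.05 in 11 of them. Nampt was also far above Naprt1, the enzyme that starts NAD synthesis from nicotinic acid, with a TPM ratio of 3.58 in MI4OE replicate 1 and of 10.3 to 17.4 in the other libraries.

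The DNA just before the start of Nampt and Mat2a is shown because these genes separated the groups in CPM, although Nampt did not in TPM. Both had a window in the RefSeq promoter table used here. IRF4 belongs to a family that recognises the half-site GAAA, either repeated in the core of the interferon-stimulated response element (GAAA, then 2 free bases, then GAAA) or joined to an ETS site in the ETS-IRF composite element (GGAA, then 2 free bases, then GAAA). The sequences are the 250 bases upstream of the transcription start in GRCm38.p6, written 5′ to 3′ on the transcribed strand, at chr12:32820085-32820334 on the plus strand for Nampt and chr6:72439557-72439806 on the minus strand for Mat2a. No letters are in capitals since the half-site, searched on both strands, occurs in neither. In the 50 bases after the start, not printed here, Nampt has 1 copy and Mat2a has 0.
Nampt: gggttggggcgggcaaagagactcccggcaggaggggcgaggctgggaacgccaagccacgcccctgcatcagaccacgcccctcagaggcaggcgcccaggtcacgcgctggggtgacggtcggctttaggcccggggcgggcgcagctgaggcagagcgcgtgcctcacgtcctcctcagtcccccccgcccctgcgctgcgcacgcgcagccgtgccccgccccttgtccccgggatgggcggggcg
Mat2a: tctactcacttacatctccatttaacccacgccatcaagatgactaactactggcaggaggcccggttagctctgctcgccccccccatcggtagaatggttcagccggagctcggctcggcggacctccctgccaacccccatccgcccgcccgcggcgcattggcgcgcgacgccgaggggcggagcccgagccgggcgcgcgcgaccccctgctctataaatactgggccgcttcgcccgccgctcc
These stretches are rich in G and C, with 75.6% for Nampt and 67.6% for Mat2a. Among 32851 RefSeq promoter windows, 86.4% held GAAA within the same 250 upstream bases, with a median of 2 copies. Promoter windows, each of 250 bases before and 50 after the start, were found for 8 of the 10 genes, 9 windows in all. In 0 of these 9 was either longer element present on either strand, against 3.44% of all windows for the response element core and 2.72% for the composite element. The elements can overlap each other and contain the half-site. These counts describe the letters of the windows, and binding was not measured.

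The nicotinamide riboside kinases showed no shared direction beyond their spread. Nmrk2, the muscle form, measured 202, 119 and 118 CPM in MI4KO and 203, 46.5 and 84.2 CPM in MI4OE. Replicate 1 was the highest of each group, and those libraries were almost equal. The fitted difference was -0.40 ± 0.51 on the log2 scale (SE, adjusted p = 0.896), and it ranged from -1.17 without MI4OE replicate 1 to -0.03 without MI4OE replicate 2. The first of these was 2.25-fold lower in MI4OE with an unadjusted p of 0.0117. The nearest profiles to Nmrk2 were Pcdhga6, 8430408G22Rik and Pitx3, at 0.26, 0.26 and 0.28 on the log2 scale against a median of 0.80. Exons of Nmrk2 share 270 bases with the antisense gene Atcayos. Nmrk1, the form found in most tissues, was steady at 4.23 to 4.87 CPM in MI4KO and 3.81 to 4.28 CPM in MI4OE, a log2 difference of -0.14 ± 0.19 (SE, adjusted p = 0.901).

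Nmnat3, the mitochondrial form of the enzyme that completes NAD, was the least variable of the set along with Nmrk1, the highest library being 1.28 times the lowest in each. It measured 14.7, 13.1 and 13.7 CPM in MI4KO and 14.96, 11.7 and 14.6 CPM in MI4OE. Its log2 difference of -0.01 ± 0.16 (SE, adjusted p = 0.994) was smaller than its error, and the sign turned under some of the alternatives. The nuclear form Nmnat1 was 2.07 to 2.62 times as high as Nmnat3 in TPM and did not separate the groups either, with means of 12.7 ± 1.90 and 12.7 ± 0.268 CPM (SD, n = 3 each).

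**Figure D4:**
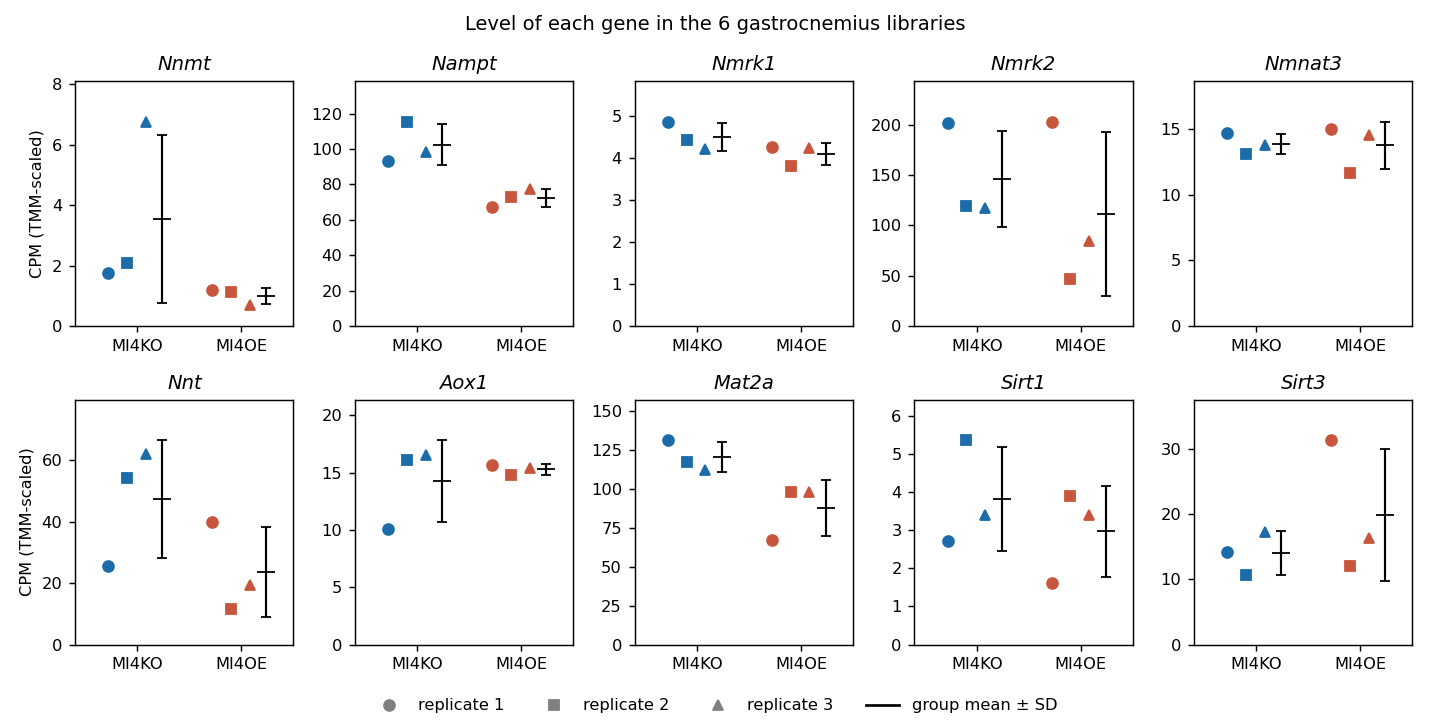
CPM of each of the 10 genes in the 3 MI4KO and 3 MI4OE libraries, each panel on its own linear axis starting at 0, with the group mean and SD in black and the replicate number as the marker shape. Nnmt, Nampt and Mat2a separate the groups, and MI4OE replicate 1 is the highest library for Sirt3 (31.3 CPM) and the lowest for Mat2a (67.2 CPM).

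Nnt, the proton-driven enzyme of the inner mitochondrial membrane that makes NADPH from NADH, was among the most variable of the 10 genes. It measured 25.5, 54.3 and 61.9 CPM in MI4KO and 39.8, 11.5 and 19.3 CPM in MI4OE. The groups overlapped, because MI4KO replicate 1 lay below MI4OE replicate 1, and the highest library was 5.40 times the lowest. The means were 47.2 ± 19.2 CPM (SD, n = 3) and 23.5 ± 14.6 CPM (SD, n = 3). Nnt thus differed by -1.01 ± 0.49 on the log2 scale (SE, unadjusted p = 0.0746, adjusted p = 0.705). Without MI4OE replicate 1 it was -1.62, or 3.08-fold lower in MI4OE, with an unadjusted p of 0.00546, and without MI4OE replicate 2 it was -0.68. The adjusted p lay between 0.487 and 0.974 over all alternatives. Nnt met the 1.5-fold criterion in 5 of 15 alternatives: without a filter, with DESeq2, with the exact test, and when replicate 1 of either group was left out. The nearest profiles to Nnt were Ctss, Neu2 and Inhbb, at 0.29, 0.32 and 0.32 on the log2 scale against a median of 0.90.

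Nnt also bears on the strain, since C57BL/6J mice carry a deletion of several exons of this gene that other C57BL/6 substrains lack. The labels say only C57BL/6, and the floxed Irf4 stock was recorded as a 129S1-derived allele on a B6 background. The transcript table held a coding Nnt transcript of 4614 bases and a non-coding record of 3526 bases, which differ by 1088 bases. The longer one received 0, 8.09 and 7.80 expected counts in MI4KO and 0 in each MI4OE library, or 0.294% of the 5408 Nnt counts in all. All other Nnt reads went to the shorter record. In the GENCODE M21 annotation of the C57BL/6J genome, the longest Nnt transcript has 3464 bases. The small share of the longer transcript was seen in 2 MI4KO libraries only. Counts divided between overlapping transcripts from 50-base reads are model estimates, the reads over the deleted exons were not examined, and the substrain of each mouse cannot be told apart here.

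The sirtuins remove acyl groups from proteins at the cost of NAD, Sirt1 mainly in the nucleus and Sirt3 in mitochondria. Sirt1 was low, with 33 to 135 counts per library, and measured 2.70, 5.35 and 3.39 CPM in MI4KO and 1.62, 3.88 and 3.40 CPM in MI4OE. The groups overlapped widely. Their log2 difference was -0.35 ± 0.39 (SE, adjusted p = 0.876), and it ranged from -0.60 without MI4OE replicate 2 to -0.04 when MI4KO replicate 2 was left out. Sirt3 measured 14.2, 10.6 and 17.3 CPM in MI4KO and 31.3, 11.99 and 16.3 CPM in MI4OE. A single library, MI4OE replicate 1, set its higher mean. The log2 difference was 0.50 ± 0.36 (SE, adjusted p = 0.819). It was 0.0072 without MI4OE replicate 1 and 0.76 without MI4OE replicate 2, where the unadjusted p was 0.0484 and the 1.5-fold criterion was met. MI4OE replicate 1 is also the library with 5014 CPM of slow-fibre markers, and the part of fibre type in the Sirt3 level was not tested. Exons of Sirt3 share 342 bases with Psmd13 and 418 bases with Ric8a on the opposite strand, and those of Sirt1 share 65 bases with Gm16145.

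The 5 other sirtuins were all tested, and 0 of 5 passed an adjusted p of 0.05 or the study's criterion. Sirt2, the most abundant sirtuin at 115 TPM, had a log2 fold change of -0.01, which turned positive with total counts or limma on TPM. The other 4 had positive log2 fold changes between 0.38 and 0.60, with unadjusted p-values between 0.122 and 0.245. The list's median was 0.44. Without MI4OE replicate 1 the median of those 4 genes fell from 0.44 to 0.17, and 1 of them, Sirt5, turned to -0.14. Sirt5, a mitochondrial desuccinylase singled out after its values were seen, had its highest value in the same library as Sirt3: it read 6.55, 4.48 and 7.99 CPM in MI4KO and 17.5, 4.82 and 6.71 CPM in MI4OE. Sirt4, Sirt6 and Sirt7 were also highest in MI4OE replicate 1, at 8.86, 4.08 and 3.84 CPM.

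Beyond these, 60 genes of NAD and methyl metabolism were listed in 7 groups, the 5 sirtuins included, and 41 of them were tested. An adjusted p under 0.05 was reached by 0 of the 41 with edgeR's quasi-likelihood test, DESeq2 or the exact test, and an unadjusted p under 0.05 by 3, Cd38, Idh2 and Pgd, beside the 7.58% of all genes. The study's criterion was met by 2, Cd38 and Idh2, both higher in MI4OE, beside the 6.64% of all genes. Which listed genes met it varied with the setting. Of the 41, 16 were higher and 25 lower in MI4OE, and their median on the log2 scale was -0.11. With total counts or limma on TPM, 21 of the 41 were lower.

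Cd38, an enzyme that cleaves NAD at the cell surface, measured 2.13, 1.98 and 2.18 CPM in MI4KO and 4.87, 2.76 and 4.02 CPM in MI4OE. The groups did not overlap. Cd38 differed by 0.88 ± 0.28 on the log2 scale (SE), 1.84-fold higher in MI4OE, at an unadjusted p of 0.0134 and an adjusted p of 0.546. It ranged from 0.69 to 1.08 when libraries were left out. Cd38 is known from immune cells. The macrophage sum overlapped between groups, with 5 of its 7 genes lower on average in MI4OE and 2 higher, Cd163 among these. The endothelial and fibroblast sums were higher in MI4OE. Their part in the Cd38 difference was not tested. Among the NAD consumers, 8 of 10 were tested, with 4 higher and 4 lower, and the most abundant, Parp3, differed by a log2 fold change of -0.05, which was positive with total counts or limma on TPM.

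Idh2, the mitochondrial isocitrate dehydrogenase that supplies NADPH, measured 38.3, 61.6 and 144 CPM in MI4KO and 777, 67.7 and 191 CPM in MI4OE. The groups overlapped, and 1 library, MI4OE replicate 1, was far above the rest. Idh2 differed by 2.09 ± 0.87 on the log2 scale (SE, adjusted p = 0.645), and this was 0.67 without that library. Idh2 missed the criterion with DESeq2, at an unadjusted p of 0.0524, with limma on TPM, and without MI4KO replicate 1, MI4KO replicate 2 or MI4OE replicate 1. The slow-fibre sum was 5014, 35.4 and 475 CPM in MI4OE, and 22.8, 93.6 and 36.4 CPM in MI4KO. Myh1, a fast myosin on the fast-fibre list that was looked up after its values were seen, read 566, 810 and 3206 CPM in MI4KO and 10167, 1305 and 5964 CPM in MI4OE, the rank order of Idh2 over the 6 libraries. It was the 1 gene of the 7 on that list with a higher level in MI4OE, the other 6 being lower, and the sum of the list overlapped, at 194650 to 255454 CPM in MI4KO and 130477 to 212018 CPM in MI4OE. The part of fibre type in the Idh2 difference was not tested. All 7 listed NADPH sources were tested, with 2 higher and 5 lower, and Pgd, of the pentose phosphate pathway, did not overlap, at 14.0 to 21.9 CPM in MI4KO and 12.2 to 13.1 CPM in MI4OE.

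In the salvage list 7 of 9 genes were tested, 2 higher and 5 lower, with a median log2 fold change of -0.15. Nadk, the cytosolic NAD kinase, was the member whose groups did not overlap, at 14.6 to 15.4 CPM in MI4KO and 12.7 to 14.3 CPM in MI4OE (adjusted p = 0.851). Of 9 genes of NAD synthesis from tryptophan, 1 was tested, Afmid, with a log2 fold change of -0.14. In the methionine cycle list, 11 of 15 were tested, 3 higher and 8 lower, and their median log2 fold change was -0.21. Ahcy, which clears the S-adenosylhomocysteine left by methyltransferases such as Nnmt, read 53.8 to 72.8 CPM in MI4KO and 38.0 to 52.6 CPM in MI4OE without overlap, at adjusted p = 0.722. Of the oxidases 2 of 5 were tested, and Cyp2e1, a liver and fat enzyme, read 4.50, 4.83 and 17.97 CPM in MI4KO and 4.77, 3.81 and 2.65 CPM in MI4OE, again highest in MI4KO replicate 3. Over all 41 genes, 2 lay wholly higher and 3 wholly lower in MI4OE, beside 7.38% and 5.48% of all genes.

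**Figure D5:**
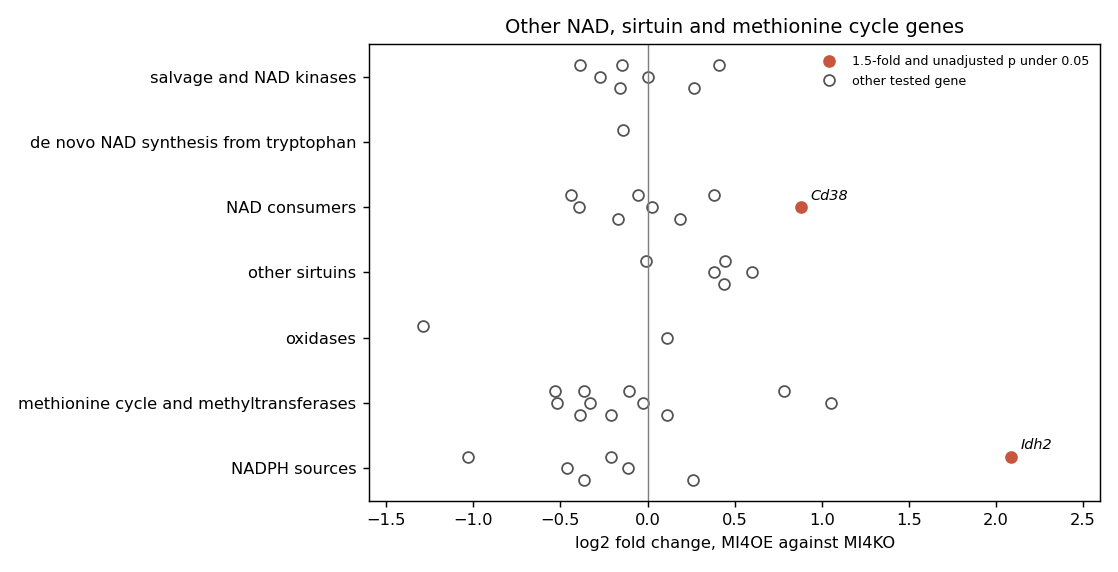
Log2 fold change of MI4OE over MI4KO for the 41 tested genes of the 7 lists, 1 point per gene. Filled points met the 1.5-fold criterion. Idh2 (2.09) and Cd38 (0.88), are the filled points, and the other 39 are open circles.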

How the data were processed

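Gastrocnemius RNA from 3 MI4KO and 3 MI4OE mice was sequenced by the authors as stranded mRNA libraries in 50-base single reads. As the labels and methods state, reads were demultiplexed with bcl2fastq 2.17, mapped with Bowtie2 2.1.0 and quantified with RSEM 1.2.15. The genome build is not given in the sources used here. The authors deposited RSEM expected counts per gene and transcript, not normalized, and TPM, in which a gene's reads are adjusted for length and depth. RSEM divides reads that match several transcripts. Gene-level counts were not whole for Nmrk1, Nmrk2 and Mat2a, and reads of Nnt and Sirt3 were divided among transcripts of the gene. The authors' tables of fold changes and p-values were not used.

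After rounding, expected counts were modelled in edgeR 4.0.16 (R 4.3.3) after filterByExpr (minimum count 10, total 15) and TMM scaling, by the quasi-likelihood test with Benjamini-Hochberg adjustment over 12660 genes at 0.05. Default settings were used. CPM used TMM-scaled library sizes. The same model gave the calls at the study's criterion (1.5-fold, unadjusted p under 0.05). Groups came from the genotype label. Replicates were numbered by deposition order, and no batch was labelled.

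Named were the 10 genes, genes of the 7 pathway lists that met the criterion, the most abundant gene of each list, Irf4, marker genes, and the 3 tested genes with a mean CPM of at least 1 nearest in profile to Nnmt, Nmrk2 and Nnt. Other list genes named for not overlapping, a low p-value or as partners of a member, and Sirt5, were picked with their values in view. The genes and lists were chosen with earlier results of these data known. Promoter windows and transcript starts came from RefSeq for GRCm38.p6, and exon overlaps from GENCODE M21. As alternatives, the filter was dropped or set to a mean CPM of 1, and the others were RLE factors, total counts, DESeq2 1.42.0, the exact test, bias-adjusted deviances, limma 3.58.1 on log2(TPM + 1) and log2(TPM + 0.1), and leaving out each library.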

Additional observations from a re-analysis of the deposited data

How the results depend on the processing

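The number of the 10 genes at an adjusted p under 0.05 was 0 in all 15 alternatives, although over all genes DESeq2 called 111 and edgeR's exact test 108, against 3. At the study's criterion the count was 1, and it was 2, Nnmt and Nnt, without a filter, with DESeq2 and with the exact test, and 1 to 3 when each library was left out. Nnmt met the criterion in 15 of 15 alternatives, with adjusted p-values from 0.0975 to 0.919. The 3 without MI4OE replicate 1 were Nmrk2, Nnmt and Nnt, and the 2 without MI4OE replicate 2 were Nnmt and Sirt3, the latter higher in MI4OE. Of the 60 listed pathway genes 2 met it, Cd38 and Idh2, both higher in MI4OE. This became 5 without a filter (2 higher, 3 lower), 4 with the exact test (2 higher, 2 lower), 0 and 1 with limma on log2(TPM + 1) and log2(TPM + 0.1), and 2 to 5 when each library was left out (1 higher and 4 lower without MI4KO replicate 1). DESeq2 gave 3, with 1 higher and 2 lower. Of the 41 genes tested with all libraries, 4 met it without a filter and 1 to 5 when each library was left out, the others being Mat1a and Qprt. Over all genes the criterion called 841, and 468 with limma on log2(TPM + 1) and 590 to 1314 without each library. Among the 10 genes and the other pathway genes named by the rule, 5 changed sign. With total counts, which moved the median of all genes by 0.0896, and with limma at pseudocounts of 1 and 0.1, they were 0.0867, 0.0418 and 0.0454 for Nmnat3, 0.102, 0.0701 and 0.0726 for Nmnat1, 0.0542, 0.0223 and 0.0226 for Parp3, and 0.0832, 0.0639 and 0.0644 for Sirt2. Nmnat1 was 0.000889 at a mean CPM of 1. Leaving out each library gave -0.0799 to 0.0920 for Nmnat3, -0.0999 to 0.208 for Aox1, -0.0962 to 0.119 for Nmnat1, -0.190 to 0.0872 for Parp3 and -0.0641 to 0.0399 for Sirt2. The cause was not tested. Sirt5, singled out beside them, turned to -0.14 without MI4OE replicate 1. The pathway genes not named by the rule were not followed one by one. Nnmt and Sirt1 rest on as few as 16 and 33 counts in a library, and genes at 0 could lie at up to 0.148 CPM. No paired analysis was possible because nothing in the labels ties a library of one group to a library of the other.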

Other observations

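The sirtuin counts were divided between transcripts by RSEM in ways that differed between libraries. Sirt1 has a transcript of 3907 bases and a transcript of 3793 bases in the table. All Sirt1 counts went to the longer transcript in 5 libraries, with 66, 135 and 101 counts in MI4KO and 111 and 77 counts in MI4OE replicates 2 and 3. In MI4OE replicate 1 all 33 counts went to the shorter one. This is the library with the fewest Sirt1 counts. Sirt3 was divided among 3 transcripts of 1423, 1415 and 1468 bases, which took 30.6% to 62.7%, 15.9% to 45.8% and 10.6% to 25.9% of its counts. The ranges of the first pair overlap. For the first transcript the groups overlapped too, with 34.3% to 62.2% in MI4KO and 30.6% to 62.7% in MI4OE. Its largest shares were in MI4KO replicate 3 and MI4OE replicate 2. No test was run on these estimates.

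Bhmt2, Mat1a and Qprt, of the methionine cycle and of NAD synthesis, did not pass the filter on low counts with all 6 libraries. Bhmt2, a homocysteine methyltransferase, had 0 counts in all 6 libraries, which allows up to 0.148 CPM. Mat1a, the liver form of Mat2a, was at most 0.198 CPM in 5 libraries and reached 1.51 CPM in MI4KO replicate 3, the library with the highest hepatocyte marker sum. Qprt, which joins the tryptophan route to NAD, was between 0.0396 and 0.235 CPM in MI4KO and between 0.344 and 0.574 CPM in MI4OE. It passed the filter in some of the subsets of 5 libraries, and only through MI4OE libraries, where it was higher. The p-values from these subsets are therefore no independent support for a difference. There, by edgeR's quasi-likelihood test, its log2 fold change was 1.90 without MI4KO replicate 3 (unadjusted p = 0.0445, adjusted p = 0.608) and 1.68 without MI4OE replicate 1 (unadjusted p = 0.0487, adjusted p = 0.912), which met the 1.5-fold criterion. It was not met without a filter (unadjusted p = 0.0586) or when MI4KO replicate 1, MI4KO replicate 2 or MI4OE replicate 3 was left out (unadjusted p from 0.0623 to 0.125).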
